A study of Rattus norvegicus with 16 samples.

Results

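Prrt2, Nptx2 and Prune2 are genes best known from the nervous system, and all 3 were measured in glomeruli of rats with puromycin aminonucleoside (PAN) nephrosis. They were picked by name from a table of 13222 genes, chosen by their log2 differences between PAN and control and between GQ-16 and the other groups in earlier results from the same data. The 3 are all the members, none was removed by the filter on low values, and their levels in those comparisons are therefore given as a description without a test. Glomeruli were sieved on day 11 from male Wistar rats of about 175 g and profiled by poly(A) RNA sequencing, with 4 rats in each of 4 groups. The control rats are labelled healthy. The PAN group received intravenous PAN, a toxin of the podocyte, and the other 2 groups received PAN with daily pioglitazone or daily GQ-16 by gavage. A sham vehicle is described for gavage, but the labels do not say which rats had it, and they give no dose, litter or pairing. Pioglitazone, a thiazolidinedione used against diabetes, activates the nuclear receptor PPARγ, and GQ-16 activates the same receptor only in part.

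PRRT2 is a membrane protein of the presynaptic terminal that binds SNAP25 and synaptotagmins and tunes vesicle fusion, and its loss causes paroxysmal movement disorders in people. NPTX2, also called NARP, is a secreted pentraxin made by active neurons that clusters AMPA-type glutamate receptors together with NPTX1 and the pentraxin receptor NPTXR. PRUNE2, also called BMCC1, carries a BCH domain like that of BNIP2 and is abundant in neurons. Sieved glomeruli hold podocytes, endothelial and mesangial cells with some attached tubule, and in such bulk RNA a lower level can mean fewer cells of a type or less RNA per cell, which cannot be told apart.

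The stretch before each gene's annotated start is shown so that the upstream sequence of the 3 genes can be compared. Each is 250 bases, 5′ to 3′ on the gene's strand, from the RefSeq annotation of assembly GRCr8, in which all 3 symbols were matched. Prrt2 lies at chr1:191059179-191059428 on the minus strand, Nptx2 at chr12:15162046-15162295 on the minus strand and Prune2 at chr1:223779520-223779769 on the plus strand. Capitals mark matches, on either strand, to any of 9 motifs that were searched.
Prrt2: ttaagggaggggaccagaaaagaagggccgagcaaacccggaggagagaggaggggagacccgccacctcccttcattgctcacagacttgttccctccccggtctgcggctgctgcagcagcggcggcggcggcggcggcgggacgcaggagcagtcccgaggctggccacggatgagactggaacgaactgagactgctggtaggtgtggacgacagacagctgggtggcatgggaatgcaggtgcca
Nptx2: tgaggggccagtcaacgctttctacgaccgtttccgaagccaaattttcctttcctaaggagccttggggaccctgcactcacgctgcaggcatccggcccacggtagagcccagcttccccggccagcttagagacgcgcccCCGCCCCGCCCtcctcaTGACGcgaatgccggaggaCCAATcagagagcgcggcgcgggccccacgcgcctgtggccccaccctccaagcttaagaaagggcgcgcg
Prune2: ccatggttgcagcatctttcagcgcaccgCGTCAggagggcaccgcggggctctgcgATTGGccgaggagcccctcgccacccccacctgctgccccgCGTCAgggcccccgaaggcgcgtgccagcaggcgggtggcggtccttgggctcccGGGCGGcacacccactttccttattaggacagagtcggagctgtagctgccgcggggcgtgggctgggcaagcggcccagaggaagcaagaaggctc

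The motifs were the short CRE TGACG, the nuclear receptor site AGGTCA, the DR1 form of the PPAR response element, the AP-1 site TGAGTCA, the E-box CACGTG, the GC box GGGCGG, the CCAAT box, TATAAA and a serum response element core. TGACG was found once before Nptx2, starting at -90 from the start site, and at 2 places before Prune2, and 18.2% of 33469 RefSeq promoters of this length hold it. GGGCGG matched 2 overlapping places before Nptx2 and 1 before Prune2 (30.5% of promoters), and CCAAT matched once in each (34.0%). None of the 9 motifs was found before Prrt2. AGGTCA, held by 14.1% of promoters, was found before none of the 3, nor was the DR1 element, held by 0.0508%. All 3 stretches were rich in G and C, at 65.2% for Prrt2, 66.0% for Nptx2 and 70.4% for Prune2 against a median of 51.2%. They held 17, 24 and 22 CpG dinucleotides against a median of 5. A match is a string of letters and not a binding site, and the start used in glomeruli was not measured.

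Libraries held 13351137 to 21977663 reads, and levels are in CPM, reads per 1000000 reads of the library. Mitochondrial genes took 13.9% to 39.6% of reads in control rats, 5.98% to 10.8% in PAN, 8.77% to 19.4% with pioglitazone and 6.76% to 31.4% with GQ-16. The median log2 difference of all genes was 0.28 for PAN minus control and lay between -0.11 and 0.21 in the other comparisons. After median-ratio scaling, which sets the typical gene equal between libraries, these medians were all between -0.015 and 0.019, and values under it are given beside those from library totals. Library titles carry numbers, and 25 or higher belongs to 3 PAN rats, 1 pioglitazone rat, 1 GQ-16 rat and 0 control rats, so title number and PAN are largely confounded. Of 10 podocyte markers all 10 were listed, with summed levels of 2247 to 9276 CPM in control rats and 7234 to 11024 CPM in PAN rats, 4084 to 11955 CPM under pioglitazone and 4119 to 14335 CPM under GQ-16.

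Prrt2 was highest in control rats and lowest in PAN rats, and rats given GQ-16 lay between them. The 4 control rats had 53.3, 30.1, 36.0 and 35.2 CPM, and the 4 PAN rats had 7.49, 7.79, 9.71 and 5.24 CPM. Every PAN rat was below every control rat. With pioglitazone the levels were 3.39, 10.6, 17.7 and 17.4 CPM, a spread that reached below the PAN rats and above them. With GQ-16 they were 26.5, 14.1, 23.0 and 17.8 CPM. All 4 GQ-16 rats were above all 4 PAN rats and below all 4 control rats, while they overlapped the pioglitazone rats.

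The mean of Prrt2 was 38.7 ± 10.1 CPM in control rats, 20.3 ± 5.47 under GQ-16, 12.3 ± 6.78 under pioglitazone and 7.56 ± 1.83 in PAN rats (SD, n = 4). In the order control, GQ-16, pioglitazone, PAN, the neighbours GQ-16 and pioglitazone overlapped and so did pioglitazone and PAN. The log2 difference of PAN from control was -2.21 on the log2(CPM + 1) scale, which understates changes of low genes, and -2.49 under median-ratio scaling. GQ-16 minus PAN was 1.31 and 1.42 by the 2 scalings, and GQ-16 minus control was -0.90 and -1.07. These comparisons chose the gene. Across all genes, 0.87% were lower in PAN than in control without overlap, 0.144% were higher with GQ-16 than in PAN without overlap, and 1.09% were lower with GQ-16 than in control without overlap. The 4 control rats enter both comparisons with control, and the 4 PAN rats both comparisons with PAN.

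**Figure D1:**
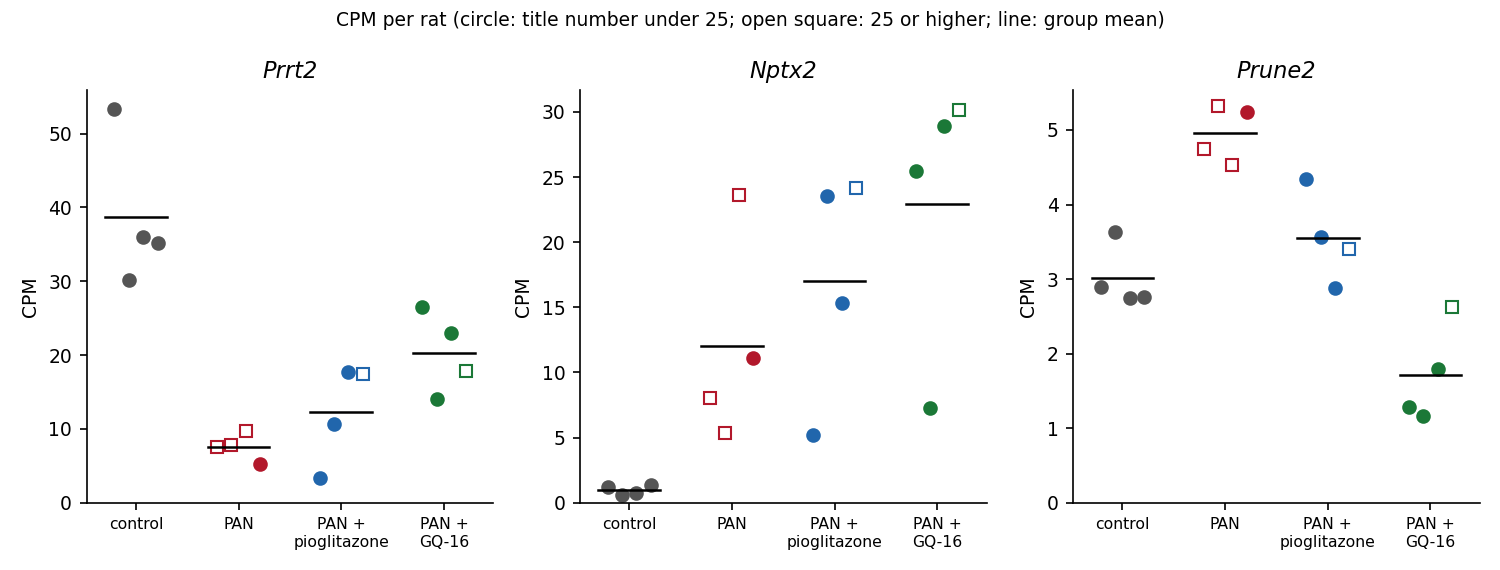
CPM of Prrt2, Nptx2 and Prune2 (vertical axes) in each rat of the 4 groups (horizontal axis), with circles for title numbers under 25, open squares for 25 or higher and lines for group means. Prrt2 in the 4 PAN rats lies below all control and GQ-16 rats, Nptx2 in control lies below all other rats, and Prune2 with GQ-16 lies below all other rats.

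In the RefSeq annotation of GRCr8 the gene Pagr1 overlaps Prrt2, so reads from the shared stretch belong to either gene. The rule by which such reads were assigned, and whether strand was used, are not given in the sources used here, and the level of Prrt2 is uncertain to that extent. PAGR1 is a subunit of the KMT2C and KMT2D histone methyltransferase complexes. Pagr1 had 24.8, 18.9, 24.0 and 24.1 CPM in control and 14.2, 14.2, 13.9 and 13.3 CPM in PAN. It had 10.7, 13.8, 14.1 and 17.8 CPM under pioglitazone and 20.6, 17.3, 16.8 and 15.04 CPM under GQ-16. Its order of groups was that of Prrt2, with a smaller span. In PAN, Pagr1 fell by 0.68 on the log2 scale from library totals and by 0.97 from median-ratio scaling, with an adjusted p of 0.00525 by limma for the first.

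Because both genes are counted in the same library, the number of Prrt2 reads per Pagr1 read does not depend on how libraries are scaled. It was 2.15, 1.59, 1.499 and 1.46 in control and 0.526, 0.548, 0.697 and 0.393 in PAN. With pioglitazone it was 0.316, 0.768, 1.26 and 0.978, and with GQ-16 it was 1.29, 0.814, 1.37 and 1.19. Control rats were above all other rats in this ratio, and all GQ-16 rats were above all PAN rats. The reads of both genes added together were 61.5 ± 12.1 CPM in control rats, 37.7 ± 7.16 under GQ-16, 26.3 ± 9.35 under pioglitazone and 21.4 ± 2.14 in PAN rats (SD, n = 4). Since both genes have this order of means, the order of their sum follows from it. The neighbours on either side, Mvp and Maz, did not pass the test in PAN against control, with log2 differences of 0.44 and 0.41 (limma, adjusted p = 0.111 and 0.0669) and of 0.14 and 0.11 under median-ratio scaling.

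**Figure D2:**
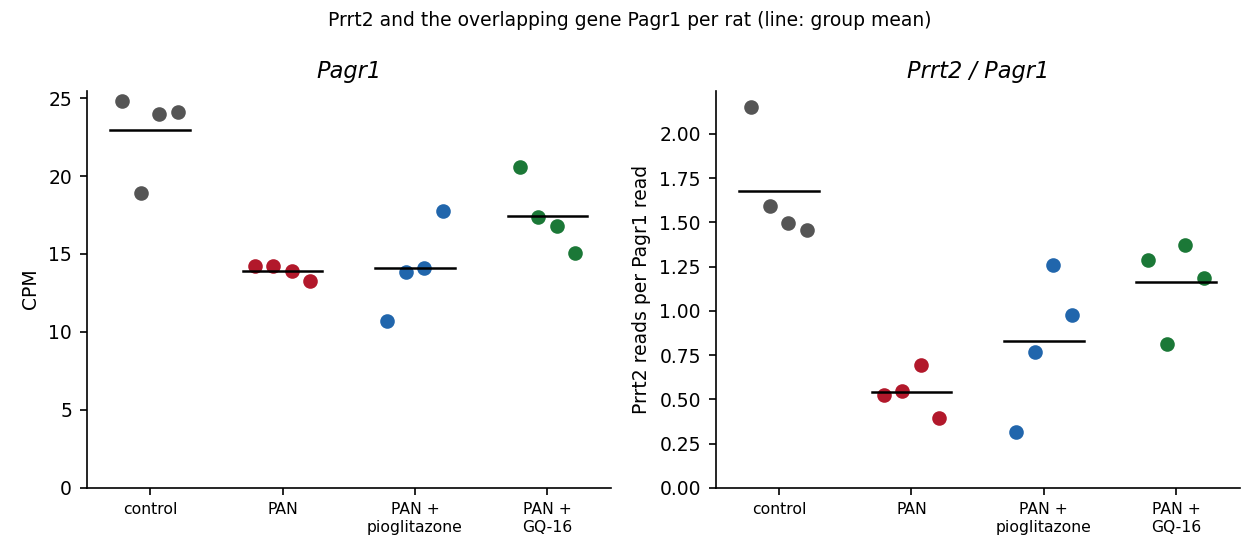
Left, CPM of Pagr1, and right, Prrt2 reads per Pagr1 read, for each rat of the 4 groups, with lines for group means. Pagr1 spans 13.3 to 24.8 CPM over the control and PAN rats, and the ratio is under 0.7 in every PAN rat and over 1.4 in every control rat.

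Among markers of other cells, genes of the distal nephron and collecting duct were lower in PAN than in control, as Prrt2 was. Of 15 such genes, 6 fell in PAN and 0 rose, against 0.522% of all genes that fell. The median difference of the 15 was -0.52, and 5 fell under median-ratio scaling, where 8.63% of all genes were called in either direction. Calb1, Slc12a3 and Atp6v1b1 had the largest falls, by 1.57, 1.15 and 1.10, with adjusted p of 0.0314, 0.0343 and 0.0136 by limma. Slc12a3 did not pass after median-ratio scaling (limma, adjusted p = 0.0545). The summed level of the 15 genes was 1306 to 2020 CPM in control rats, 719 to 1368 in PAN rats, 855 to 1056 under pioglitazone and 870 to 1631 under GQ-16. The list median was 0.09 for GQ-16 minus PAN and -0.14 for pioglitazone minus PAN, beside 1.31 and 0.45 for Prrt2. The ranges of this sum overlapped between control and PAN and between PAN and GQ-16, while every pioglitazone rat was below every control rat. With the score of these markers as a covariate, Prrt2 differed between PAN and control by -1.89, and the genes called in that comparison went from 2943 to 185. The part of these cells in the level of Prrt2 was not tested.

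Nptx2 was low in control rats and higher in all 12 rats given PAN. The control rats had 1.24, 0.576, 0.727 and 1.37 CPM, from 11 to 24 reads. The smallest of these counts, 11 reads, has an exact 95% Poisson interval of 5.49 to 19.7 reads, which covers counting error only. The PAN rats had 8.08, 5.38, 23.6 and 11.1 CPM. With pioglitazone the levels were 5.21, 23.5, 15.3 and 24.2 CPM, and with GQ-16 they were 25.5, 7.30, 28.9 and 30.2 CPM. Control stood apart from each injured group, and the 3 injured groups overlapped one another.

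Means of Nptx2 were 23.0 ± 10.6 CPM under GQ-16, 17.1 ± 8.87 under pioglitazone, 12.0 ± 8.06 in PAN rats and 0.978 ± 0.385 in control rats (SD, n = 4). The mean was 12.3-fold higher in PAN and 23.5-fold higher with GQ-16 than in control, both comparisons that chose the gene. The log2 differences on the log2(CPM + 1) scale were 2.56 and 3.45, and 2.39 and 3.39 under median-ratio scaling. No overlap upward was seen in 22.4% of all genes for PAN against control and in 4.92% for GQ-16 against control. GQ-16 minus PAN was 0.89, with the GQ-16 rat higher in 13 of 16 pairs of rats. The PAN rat with a title number under 25 had 11.1 CPM, and with only such titles PAN minus control was 2.63.

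GQ-16 replicate 2, the lowest of its group in Nptx2, also had the highest mitochondrial share of the GQ-16 rats, 31.4%. Under median-ratio scaling it had 8.48 CPM beside 25.6 to 28.0 CPM in the other 3. Without it GQ-16 minus PAN was 1.34.

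Markers of contractile, matrix and muscle cells were also higher in PAN rats. Of 9 measured mesangial and smooth muscle markers, 8 rose, where 21.7% of all genes did, with the largest rises in Des, Tagln and Acta2, by 3.25, 3.21 and 2.72 on the log2 scale with adjusted p of 0.000379, 0.000684 and 0.000628 by limma. The 9 summed to 547 to 1110 CPM in control rats, 2091 to 3486 in PAN rats, 1602 to 2236 under pioglitazone and 1056 to 1925 under GQ-16. Of 6 fibroblast and matrix markers 3 rose in PAN, and their sum was 502 to 1066 CPM in control rats, 1469 to 5094 in PAN rats, 1351 to 2290 under pioglitazone and 1024 to 3006 under GQ-16. All 3 measured striated muscle markers of 10 rose in PAN, from a sum of 4.78 to 25.4 CPM in control rats to 369 to 582 CPM, and this sum was 83.9 to 486 CPM under pioglitazone and 71.8 to 504 CPM under GQ-16. These 3 sums were lower in control than in PAN without overlap, as Nptx2 was. Listed genes reach 2 CPM in at least 8 libraries, so a gene low in control is listed only through the other rats. The rise of the striated muscle markers may in part be set by that filter. Of 9 macrophage and leukocyte markers 5 rose in PAN, but 0 rose and 1 fell under median-ratio scaling, and their sum overlapped between control, at 234 to 347 CPM, and PAN, at 308 to 888 CPM. It was 256 to 487 CPM under pioglitazone and 240 to 373 CPM under GQ-16. Of 10 podocyte markers 3 rose in PAN and 1 did under median-ratio scaling, where 8.63% of all genes were called in either direction. Their median difference was 1.42, and 1.12 under median-ratio scaling, beside 0.28 and -0.0025 for all genes. The part of these cells in the level of Nptx2 was not tested.

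**Figure D3:**
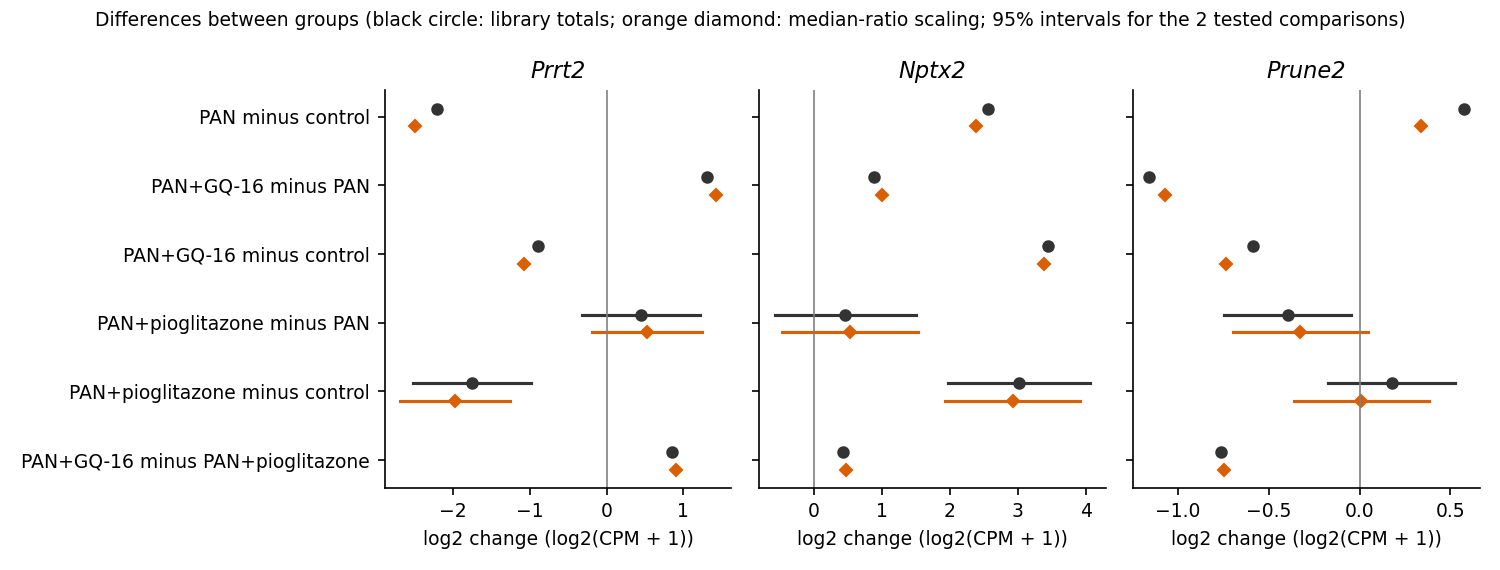
Log2 differences between groups on the log2(CPM + 1) scale (horizontal axes) for 6 comparisons (vertical axis), from library totals in black and median-ratio scaling in orange, with 95% intervals only for pioglitazone minus PAN and minus control, which did not choose the genes. Prune2 in PAN minus control goes from 0.57 to 0.34 between the 2 scalings, and Prrt2 goes from -2.21 to -2.49.

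Prune2 was the only one of the 3 genes lower with GQ-16 than in every other group. PAN rats had 4.74, 5.32, 4.53 and 5.24 CPM, and control rats 2.89, 3.63, 2.75 and 2.76 CPM. Pioglitazone rats had 4.35, 3.56, 2.88 and 3.40 CPM. GQ-16 rats had 1.29, 1.16, 1.80 and 2.62 CPM. The 4 GQ-16 rats were below all other 12 rats, and the PAN rats were above all other 12. Higher in PAN than in control without overlap were 22.4% of all genes. These levels rest on 15 to 95 reads, and the lowest count of 15 has an exact 95% Poisson interval of 8.39 to 24.7 reads.

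Means of Prune2 were 4.96 ± 0.384 CPM in PAN rats, 3.55 ± 0.606 under pioglitazone, 3.01 ± 0.420 in control rats and 1.72 ± 0.663 under GQ-16 (SD, n = 4). The order was PAN, pioglitazone, control, GQ-16, and only pioglitazone and control overlapped as neighbours. GQ-16 minus PAN was -1.16 on the log2(CPM + 1) scale and -1.07 under median-ratio scaling, and GQ-16 minus control was -0.59 and -0.74. PAN minus control was 0.57, but 0.34 under median-ratio scaling, where the PAN and control rats overlapped. Without overlap, 3.47% of all genes were lower with GQ-16 than in PAN. A Prune2 pseudogene is annotated elsewhere in GRCr8, and a lncRNA overlaps Prune2 on the other strand, so some of these reads are uncertain in origin. The summed mesangial and smooth muscle markers, like Prune2, were lower in all 4 GQ-16 rats than in all 4 PAN rats, and their part in the level of Prune2 was not tested.

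The gene next to Prune2, Gcnt1, which encodes a glycosyltransferase that builds branched O-glycans, had a like order of levels. It had 12.3 to 20.2 CPM in PAN rats, 11.1 to 18.0 CPM under pioglitazone, 9.38 to 10.7 CPM in control rats and 7.56 to 10.1 CPM under GQ-16. GQ-16 minus PAN was -0.72 for Gcnt1 (limma, adjusted p = 0.295), and the 4 GQ-16 rats were below the 4 PAN rats.

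The comparisons of pioglitazone with control and with PAN were not used to choose the genes, although they share the control or PAN rats with those that were. Of 6 such tests, 2 passed. Nptx2 was 17.4-fold higher in mean with pioglitazone than in control, a log2 difference of 3.02 with an SE of 0.49 and an adjusted p of 0.0077 by limma. Median-ratio scaling gave 2.92. All genes of the table reach 2 CPM in at least 8 libraries, and no control rat did so for Nptx2, so it is in the table only through the PAN-injected rats, its difference from control is in part set by that filter, and this call is no independent support. Prrt2 fell with pioglitazone against control by 1.75, with an SE of 0.36 and an adjusted p of 0.0176 by limma. Median-ratio scaling gave -1.97. Of 15 distal nephron and collecting duct markers, 5 fell and 0 rose in the same comparison, and 4 fell under median-ratio scaling. Their median difference was -0.81, and their part in the fall of Prrt2 was not tested. In this comparison 4.98% of all genes were called (2.84% under median-ratio scaling), 4.7% higher and 0.287% lower. All 16 pairs of rats had Nptx2 higher and Prrt2 lower with pioglitazone, and 13.1% of all genes were higher and 1.06% lower without overlap. Prune2 differed from control by 0.18, with a 95% interval from -0.17 to 0.53 (limma, adjusted p = 0.437).

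The call of Prrt2 with pioglitazone against control was lost without pioglitazone replicate 2, control replicate 2 or control replicate 3 (limma, adjusted p = 0.0631, 0.0598 and 0.0662), with differences of -1.76, -1.86 and -1.78. That of Nptx2 was lost with voom on the recovered reads (limma, adjusted p = 0.0525), with a difference of 3.73. With the collecting duct score as a covariate both were lost, at -1.28 for Prrt2 and 2.24 for Nptx2, and 0 genes of the table were then called.

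Pioglitazone against PAN gave no call for any of the 3 genes and for 0 of all genes, of which 495 (3.74%) had an unadjusted limma p under 0.05. The log2 differences were 0.45 for Prrt2 (95% interval -0.31 to 1.22), 0.46 for Nptx2 (-0.58 to 1.504) and -0.40 for Prune2 (-0.75 to -0.05), each with a adjusted p of 0.916 by limma. All 4 pioglitazone rats had less Prune2 than all 4 PAN rats, as 2.36% of all genes did, but under median-ratio scaling the groups overlapped and the interval was -0.70 to 0.05.

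GQ-16 and pioglitazone are set side by side without a test, since levels with GQ-16 chose the genes and the labels give no doses. Prune2 was lower with GQ-16, at 1.72 against 3.55 CPM, a log2 difference of -0.76 and of -0.75 under median-ratio scaling. The 4 GQ-16 rats were below the 4 pioglitazone rats, which was so for 1.94% of all genes. For Prrt2 GQ-16 was higher by 0.85, in 14 of 16 pairs of rats. For Nptx2 the difference was 0.43, in 13 of 16 pairs. Of all genes, 0 were called by limma and 786 (5.94%) had an unadjusted p under 0.05.

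Pioglitazone replicate 1 was the lowest of its group in Prrt2 and in Nptx2 and the highest in Prune2. For pioglitazone minus control, Prune2 was 0.096 without that rat. Several single rats moved the differences that involve pioglitazone. For pioglitazone minus PAN, Prrt2 was 0.92 without that rat and 0.22 and 0.23 without pioglitazone replicates 3 and 4. Nptx2 was 0.91 without that rat, 0.83 without PAN replicate 3, 0.25 and 0.24 without pioglitazone replicates 2 and 4, and 0.18 without PAN replicate 2. For GQ-16 minus pioglitazone, Prrt2 ran from 0.39, without pioglitazone replicate 1, to 1.09, without pioglitazone replicate 3. Nptx2 ran from -0.02, without pioglitazone replicate 1, to 0.88, without GQ-16 replicate 2.

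The partners of each protein were examined from lists chosen with earlier results of these data known. In the presynaptic release list 14 of 25 genes were measured, 2 rose in PAN and 0 fell, against 22.3% of all genes called, 21.7% higher and 0.522% lower. Among them was Stx1a, the syntaxin of the SNARE complex, with a difference of 0.58 (limma, adjusted p = 0.0193). Under median-ratio scaling, where 8.63% of all genes were called in PAN, 0 of 14 were, and the list's median went from 0.25 to -0.041. Snap25, Syt1 and Syt2 are not analysed here. In the list of dispanins and paroxysmal disorder genes 6 of 16 were measured besides Prrt2. Ifitm1, Ifitm2 and Ifitm3, interferon-induced membrane proteins related to PRRT2, rose in PAN by 0.67, 0.56 and 0.70 (limma, adjusted p = 0.0246, 0.0257 and 0.0443), and 0 of 6 were called under median-ratio scaling. Prrt1, the nearest relative by name, had 4.69 ± 1.70 CPM in control and 6.33 ± 1.67 in PAN (SD, n = 4), a difference of 0.38 (limma, adjusted p = 0.233).

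For Nptx2, 7 of 16 partner genes were measured, and 3 rose in PAN under both scalings, where 21.7% of all genes rose from library totals and 8.63% were called under median-ratio scaling. The list's median difference was 0.59, beside 0.28 for all genes. Nptxr, the membrane-bound pentraxin, had 2.64, 1.38, 1.93 and 1.65 CPM in control and 21.3, 7.32, 6.98 and 7.22 CPM in PAN, a log2 difference of 1.88 (limma, adjusted p = 0.00136). PAN replicate 1 was far above the other PAN rats, and all 4 were above control. Control rats other than replicate 1 were under 2 CPM, which each listed gene reaches in at least 8 libraries. Nptxr is thus in the table only through the PAN-injected rats, and its differences from control are in part set by that filter. With GQ-16 Nptxr had 3.38 to 7.52 CPM, and its difference from PAN was -0.95 (limma, adjusted p = 0.421), opposite in sign to that of Nptx2, 0.89.

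Arc, an activity-induced regulator of AMPA receptor uptake, rose from 71.0 ± 49.4 CPM in control to 300.5 ± 116 in PAN (SD, n = 4), a log2 difference of 2.29 (limma, adjusted p = 0.00498). Dlg4, the PSD-95 scaffold of the postsynaptic density, rose by 1.12 (limma, adjusted p = 0.0027). With pioglitazone against control, where 4.7% of all genes rose, Nptxr and Dlg4 rose by 1.19 and 0.88 (limma, adjusted p = 0.0377 and 0.0274), and Nptxr did not pass after median-ratio scaling (limma, adjusted p = 0.0603). Nptx1, the closest paralogue of Nptx2, varied widely within groups, from 3.39 to 115.8 CPM with pioglitazone. Its difference between PAN and control was 0.59 (limma, adjusted p = 0.596).

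**Figure D4:**
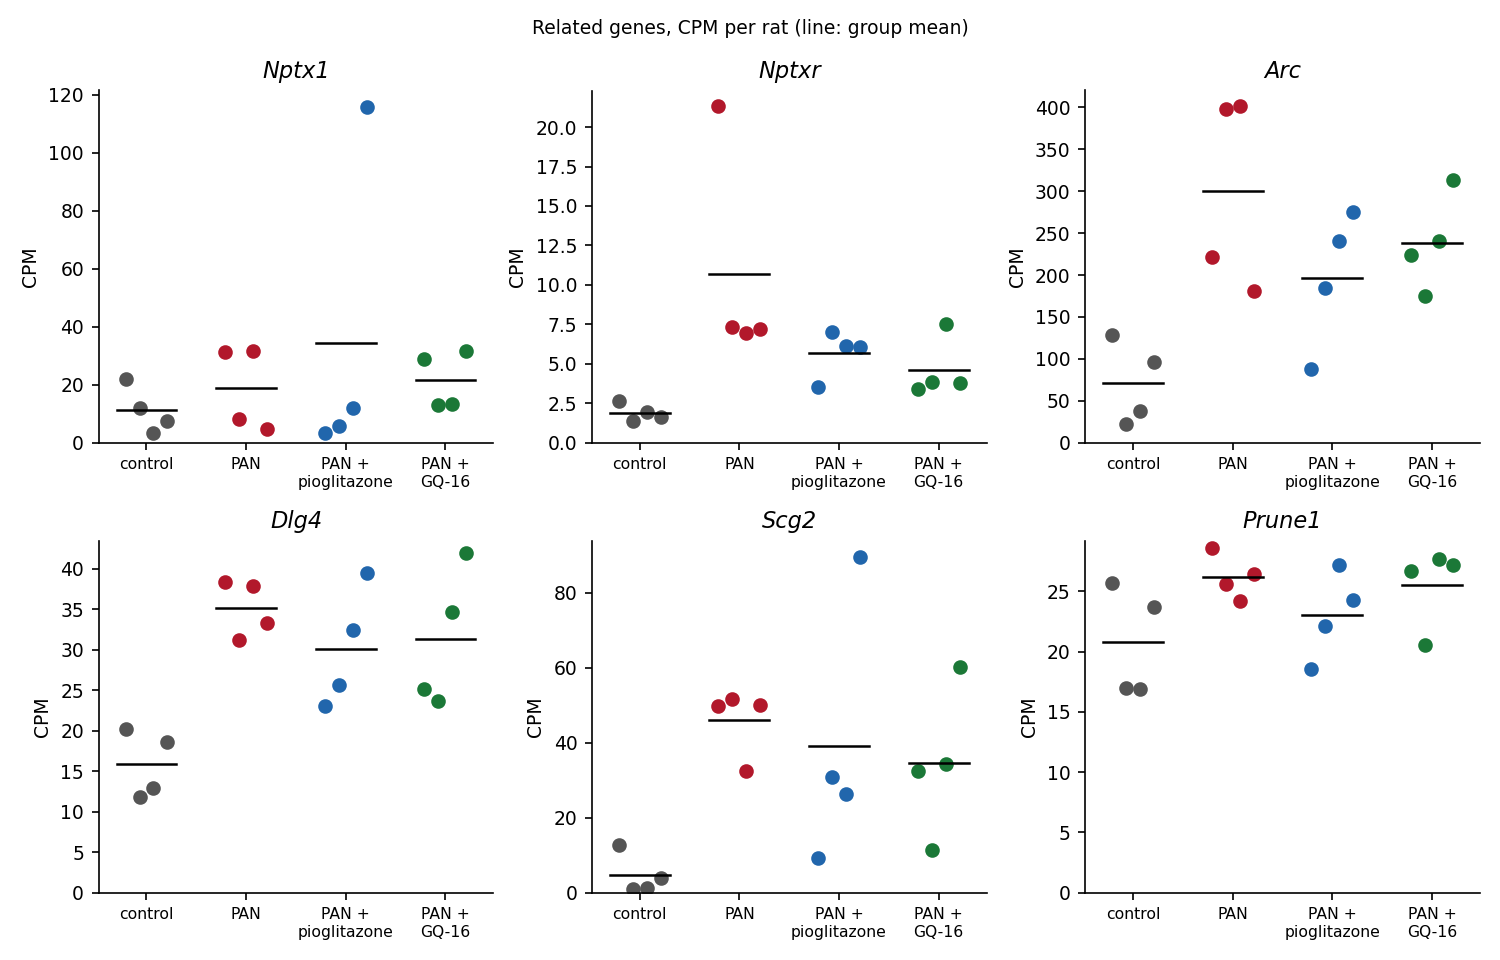
CPM of Nptx1, Nptxr, Arc, Dlg4, Scg2 and Prune1 (vertical axes) in each rat of the 4 groups (horizontal axis), with lines for group means. Nptxr, Arc, Dlg4 and Scg2 are higher in all 4 PAN rats than in all 4 control rats, while Nptx1 and Prune1 overlap between these groups.

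Of 12 genes related to Prune2, 10 were measured, and 2 rose in PAN, a share close to the 21.7% of all genes. Arhgap1, a RhoGAP with the same type of domain, rose by 1.004 with an adjusted p of 0.00674 by limma, and median-ratio scaling gave 0.70. Arhgap8 rose by 1.16 (limma, adjusted p = 0.0313) and did not pass after median-ratio scaling (limma, adjusted p = 0.0977). Kif5a, a neuronal kinesin heavy chain, had a difference of -0.55 (limma, adjusted p = 0.0675) and fell under median-ratio scaling, by 0.78 (limma, adjusted p = 0.00726). Bnip2 had differences of 0.32 in PAN and -0.07 for GQ-16 minus PAN, and Prune1 of 0.34 and -0.04, none past the threshold (limma, adjusted p = 0.108 to 0.965). In each of the 4 lists, 0 genes were called for either drug against PAN, where 0.0151% of all genes were called with GQ-16 and 0% with pioglitazone.

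Markers of neurons were sparse. Of 20, 6 were measured, and Rbfox3, Tubb3, Snap25, Th and Stmn2 are not analysed here. In PAN 2 of the 6 rose, against 21.7% of all genes, and 0 fell. Nefh and Nefm, neurofilament chains of axons, had differences of -1.04 and -0.66 in PAN (limma, adjusted p = 0.329 and 0.135). Map2 and Syn1 had differences of 1.48 and 0.64 (limma, adjusted p = 0.0856 and 0.0851). Scg2, a granin of secretory granules, had 12.6, 1.08, 1.17 and 3.82 CPM in control and 49.9, 51.8, 32.4 and 50.2 CPM in PAN. Its rise was 3.48 on the log2 scale (limma, adjusted p = 0.00248). Uchl1 rose by 1.33 (limma, adjusted p = 0.0389) and did not pass after median-ratio scaling (limma, adjusted p = 0.0963). The summed level of the 6 was 16.9 to 111 CPM in control rats, 106 to 142 in PAN rats, 37.8 to 187 under pioglitazone and 52.8 to 183 under GQ-16. Of 10 Schwann cell markers 6 were measured and 1 rose in PAN, where 21.7% of all genes rose. Their sum was 75.3 to 131 CPM in control and 113 to 139 in PAN. The part of nerve fibres in the levels of Prrt2, Nptx2 and Prune2 was not tested.

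The genes whose levels ran most like each member were ranked by Pearson's r over the 16 libraries, which share group structure and scaling. For Prrt2 these were Pagr1 (r 0.92), Epha4 (0.76), Arhgef19 (0.72), Kif5a (0.72) and Gp2 (0.71). Epha4, an ephrin receptor, had 40.8 ± 5.92 CPM in control and 23.4 ± 6.33 in PAN (SD, n = 4). For Nptx2 they were Socs1 (0.90), Sertad1 (0.89), Msh6 (0.89), Plppr5 (0.88) and Pop7 (0.88). Socs1, an inhibitor of cytokine signalling, had 2.23 to 5.22 CPM in control and 13.4 to 20.9 CPM in PAN. For Prune2 they included Nampt (0.79), Mmp28 (0.78), Mast4 (0.78) and Pcdh7 (0.78). Mmp28, a secreted metalloproteinase, had 2.80 to 6.22 CPM in PAN and 1.02 to 1.48 CPM with GQ-16. Under median-ratio scaling 3 of the top 5 stayed among the top 5 for Prrt2, 2 for Nptx2 and 0 for Prune2. With deviations from group means, 0 of 5 stayed for any of the 3.

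Over the 16 libraries r was -0.37 for Prrt2 with Nptx2, -0.57 for Prrt2 with Prune2 and -0.14 for Nptx2 with Prune2. As deviations from group means, r was 0.66, -0.44 and 0.0080 for the same pairs.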

How the data were processed

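RNA from glomeruli of 16 rats was sequenced, with 4 rats in each of 4 groups taken from the labels. Per the submitters' processing notes, HISAT2, featureCounts of Subread and limma were used with genome build Rnor_6.0. Versions, strand setting and order of steps are not given in the sources used here. The authors deposited log2 CPM values. Undoing them, with 0.5 read added to each count, gave whole reads within 0.05 for 100% of values. Of the 13222 genes each reached 2 CPM in at least 8 libraries, so low genes had been removed before. A count of 3 reads equals 0.14 to 0.22 CPM. No 2 libraries of a group agreed within counting error (chi-square per gene from 13.3 to 297). That libraries are separate rats rests on the labels, and p-values measure only the spread between these samples.

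Differences were fitted to log2(CPM + 1) with limma 3.58.1 under R 4.3.3, with 4 group means over 16 libraries, a variance trend, two-sided p-values and Benjamini-Hochberg adjustment over 13222 genes. Genes under an adjusted p of 0.05 are called. A mean of at least 1 CPM was required and removed no gene. The fit was tested on simulated data. A test of GQ-16 minus pioglitazone was planned for the members and is given as a description only, since levels with GQ-16 chose them. The members and gene lists were chosen with earlier results of these data known. Genes named are the members, fixed relatives, up to 3 called genes per list and comparison, the 5 most alike by Pearson's r, and chromosomal neighbours. Some genes that this rule names are not reported here. Replicate numbers follow accession order and only name rats.

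Alternatives were median-ratio scaling, totals excluding mitochondrial genes, quantile normalization, a pseudocount of 0.1, voom, a mean of at least 10 CPM, no filter, only the groups compared, a title number or collecting duct score covariate, and leaving out each rat. A title number covariate with median-ratio scaling, and only titles under 25, were chosen after seeing the data. Promoter sequences and gene neighbours come from RefSeq on GRCr8, another build than that of the counts.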

Additional observations from a re-analysis of the deposited data

Results flagged for a closer look

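Nptx2 in GQ-16 replicate 2 was set apart from its group. It had 7.30 CPM and the nearest rat 25.5 CPM, a gap of 0.877 of the group's range on the log2(CPM + 1) scale, above Dixon's 95% limit for 4 values. This was 1 of 12 groups of 4 rats examined, and chance sets about 1 in 20 groups apart. The rat's mitochondrial share was 31.4%, and its part in this value was not tested.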

How the results depend on the processing

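Filters and fitting only the groups compared cannot move a difference and are not counted here. Of 306 other recomputed differences of the 3 genes, 274 kept their direction and their side of the threshold, or, where no test is given, stayed within 1 SD. Leaving out 1 of 4 rats cannot move a difference by 1 SD. Where no test is given, those values could fail only by changing sign, so their staying is no support. For PAN minus control, Prune2 was 0.34 under median-ratio scaling and with totals excluding mitochondrial genes, 0.23 under quantile normalization, 0.71 with a pseudocount of 0.1, 0.43 with voom, 0.38 with the collecting duct covariate and 0.29 with the title number covariate and median-ratio scaling. Prrt2 was -2.54 under quantile normalization, -2.64 with voom, -2.73 with the title number covariate and median-ratio scaling and -2.64 with only titles under 25. Nptx2 was 3.35 with a pseudocount of 0.1 and 3.18 with voom. For GQ-16 minus PAN, Prune2 was -1.54 with a pseudocount of 0.1 and -1.46 with voom, and Prrt2 was 1.79 with only titles under 25. For GQ-16 minus control, Nptx2 was 4.30 with a pseudocount of 0.1 and 4.35 with voom, and Prune2 was -1.03 with voom. For GQ-16 minus pioglitazone, Prune2 was -1.06 with a pseudocount of 0.1 and with voom. For pioglitazone minus control, Nptx2 was 3.73 with voom and 2.24 with the collecting duct covariate, where Prrt2 was -1.28. Prune2 changed sign there, at -0.00034 with totals excluding mitochondrial genes, -0.012 under quantile normalization, -0.11 with the collecting duct covariate and -0.0065 with the title number covariate and median-ratio scaling. With a rat left out, Prrt2 in pioglitazone minus control ran from -1.99 to -1.29, and Nptx2 in GQ-16 minus pioglitazone from -0.021 to 0.88. The cause was not tested.

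Genes called for PAN minus control went from 2943 to between 79 (only titles under 25, with 1 PAN rat) and 2962, for pioglitazone minus control from 659 to between 0 (collecting duct covariate) and 686, for GQ-16 minus control from 20 to between 0 (collecting duct covariate) and 144, and for GQ-16 minus PAN from 2 to between 0 and 2. With a rat left out they ran from 838 to 4964, 48 to 1660, 0 to 1572 and 0 to 9. A mean of at least 10 CPM leaves out Prune2, which then has no value. Prune2 and control Nptx2 rest on few reads, which limits their precision. No paired analysis was possible because the labels give no numbers shared between groups.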
